A study of Mus musculus with 12 samples.

Results

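The genes described here are 7 Fc receptor and ITAM adapter genes, chosen by symbol: the adapters Fcer1g and Tyrobp, the activating IgG receptors Fcgr1, Fcgr3 and Fcgr4, the inhibitory receptor Fcgr2b, and Trem2, a lipid-binding receptor that signals through Tyrobp. All 7 were found among 37991 genes and all 7 were among the 18981 genes with enough counts to be tested. Fc receptors bind the constant part of antibodies, and the activating ones hold no strong signalling tail of their own. They pair with a small adapter that carries an ITAM, a tail motif with a pair of tyrosines that recruits the kinase Syk once phosphorylated. The adapters of myeloid cells are the Fc receptor common gamma chain, encoded by Fcer1g, and DAP12, encoded by Tyrobp. The inhibitory receptor encoded by Fcgr2b instead carries an ITIM, a motif with 1 tyrosine that recruits the phosphatase SHIP1.

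RNA had been sequenced from bone-marrow-derived dendritic cells (BMDC) of the C57BL/6 strain, cells grown in culture from marrow progenitors. Of 12 libraries, 6 were labelled as Vav1/2/3-/- (KO), from cells meant to lack all 3 Vav proteins, which are exchange factors that act downstream of Syk, and 6 as wild type (WT). In each genotype 3 libraries came from cells given curdlan for 3 hours and 3 from cells left unstimulated. Curdlan is a particulate beta-glucan recognised by Dectin-1, which Clec7a encodes and which has an ITAM-like motif of its own, so the comparisons set curdlan against no stimulation in each genotype, the 2 responses against each other, and KO against WT with and without curdlan. The libraries are called by the numbers in their names: 2, 4 and 5 for KO with curdlan, 1, 2 and 5 for unstimulated KO, and 1, 2 and 4 for WT in both states. The labels do not say whether replicates are separate mice or cultures, so p-values measure the spread between these libraries, which may be technical. Each group was run in a sequencing lane of its own, so lane and group cannot be told apart.

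Library totals were 41421718 to 61217861 counts, and the 7 genes together held 0.188% to 0.311% of the counts of a library. The genotype label could not be checked by loss of the targeted transcripts. Vav2 averaged 282 ± 6.04 CPM in unstimulated libraries labelled KO and 67.3 ± 3.1 CPM in unstimulated WT libraries (CPM, counts scaled to the size of the library; mean ± SD, n = 3 each), a log2 fold change of 2.07. Vav1 was also higher in libraries labelled KO (212 ± 18.1 CPM) than in WT libraries (133 ± 2.18 CPM), and Vav3 averaged 36.6 ± 4.52 CPM in libraries labelled KO and 26.3 ± 4.04 CPM in WT libraries, all unstimulated. The counts cover whole genes, so transcript that remains after a deletion of some exons would still be counted. Every genotype direction below therefore rests on the labels. Of 15 conventional dendritic cell markers, 14 averaged above 1 CPM in both sets of libraries labelled KO and 15 in both sets of WT libraries. Clec9a, a marker of the cross-presenting subset, averaged 0.358 CPM in libraries labelled KO and 8.0 CPM in WT libraries, both with curdlan. Xcr1, another marker of that subset, was not lower in libraries labelled KO. It averaged 4.13 CPM there and 3.55 CPM in WT libraries with curdlan, and 2.28 and 1.91 CPM without it. Whether the subset was rarer in libraries labelled KO was not tested.

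The motifs known from the activating and the inhibitory arm are shown as the coding bases of the annotated transcripts, since reads over them contribute to the counts described below. A search for a tyrosine codon, 2 further codons and a leucine or isoleucine codon, repeated after 6 to 8 codons, found the ITAM once in Fcer1g and once in Tyrobp and in none of the other 5 genes. Capitals mark the tyrosine and the leucine codons.
Fcer1g ITAM: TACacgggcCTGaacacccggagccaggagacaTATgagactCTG
Tyrobp ITAM: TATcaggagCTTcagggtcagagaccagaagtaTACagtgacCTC
The Fcer1g motif begins at codon 65 of 86 and spans exons 4 and 5 at chr1:171229889-171230072 on the minus strand, and the Tyrobp motif begins at codon 92 of 114 and spans exons 4 and 5 at chr7:30415670-30417382 on the plus strand (GRCm38, GENCODE M21). The same pattern occurred in 2.9% of 21899 coding genes. In Fcgr2b the inhibitory motif lies in exon 8 at codon 317 of 340, at chr1:170961071-170961088 on the minus strand, with the isoleucine, tyrosine and leucine codons in capitals.
Fcgr2b ITIM: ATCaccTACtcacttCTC
The ITIM pattern alone does not set Fcgr2b apart. It also matched once each in Fcer1g, Tyrobp and Fcgr4 and 3 times in Fcgr1, and 49.1% of coding genes hold it in an annotated transcript.

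Fcgr2b, Fcgr3 and Fcgr4 stand in 1 cluster on chromosome 1, with Fcgr2b at chr1:170958617-170976547 on the minus strand, Fcgr4 at chr1:171018920-171029761 on the plus strand and Fcgr3 at chr1:171051174-171064935 on the minus strand. Fcer1g lies on the same chromosome at chr1:171229572-171234365 on the minus strand. Fcgr1 is at chr3:96282909-96293969 on the minus strand, Tyrobp at chr7:30413760-30417585 on the plus strand and Trem2 at chr17:48346401-48354147 on the plus strand. The extracellular parts of Fcgr2b and Fcgr3 are so alike that reads of 1 gene can match the other. Of all runs of 50 bases in their annotated protein-coding transcripts, 166 were identical between them, which is 10.2% of those of Fcgr3 and 4.48% of those of Fcgr2b. Of runs of 100 bases, 44 were identical, which is 2.7% of those of Fcgr3 and 1.14% of those of Fcgr2b. The longest identical stretch has 129 coding bases, shown because a read inside it cannot be given to either gene.
Fcgr2b and Fcgr3 shared stretch: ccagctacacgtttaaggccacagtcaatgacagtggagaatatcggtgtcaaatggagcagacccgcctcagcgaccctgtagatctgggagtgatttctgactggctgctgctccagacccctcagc
Fcgr1 and Fcgr4 shared no run of 50 bases with any other member. Fcgr2b also overlaps the antisense gene Gm38204, and the library kit does not mark strand, so reads of the pair cannot be told apart. On their own strands, Fcgr3 overlaps the miRNA gene Mir6546 and Fcgr4 the snRNA gene Gm26110.

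All 7 transcripts were higher in libraries labelled KO than in WT libraries, both with curdlan and without it. Of all genes tested, 24.7% were called higher in libraries labelled KO with curdlan and 21.1% without it. The differences were modest for 6 of them, at 1.30- to 2.33-fold, and larger for Fcgr4, at 3.97-fold with curdlan and 3.56-fold without it. With curdlan, Fcgr1 and Fcer1g were higher than without it in libraries labelled KO, where 14% of all genes were called higher. No member was called for a change with curdlan in WT libraries, where 19.8% of all genes were. The response to curdlan differed between the genotypes for Fcgr1, as it did for 5.21% of all genes. The plot of the 7 genes by library shows these levels.

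**Figure D1:**
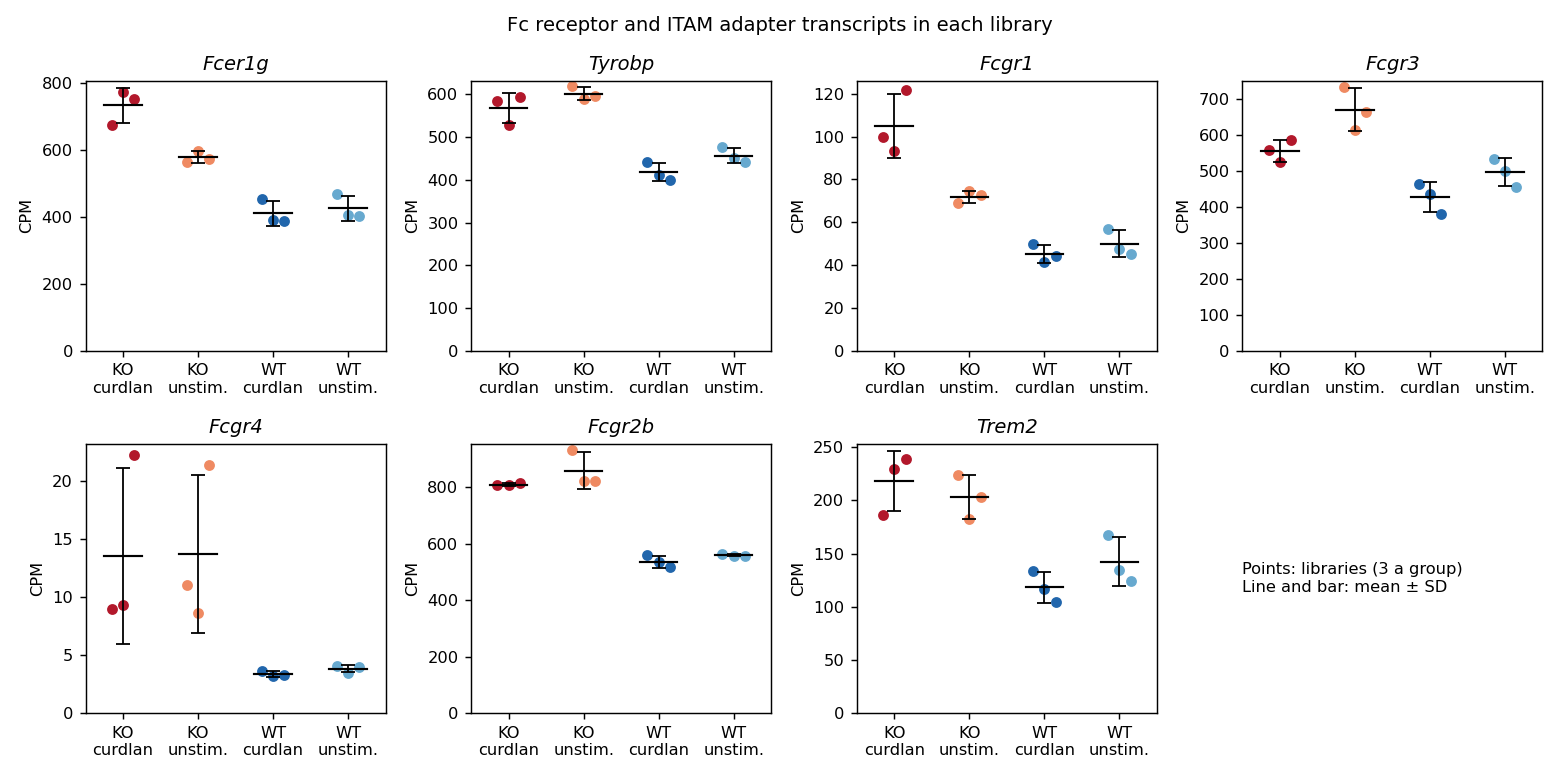
Levels in CPM (vertical axes, linear, from 0) of the 7 genes in each of the 12 libraries, 1 panel a gene, with the groups on the horizontal axes; points are libraries, and the line and bar are the group mean ± SD (n = 3). In every panel the lowest library labelled KO lies above the highest WT library of the same state, and Fcgr4 has a single high library in each KO group.

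The adapters come first. Fcer1g, which also serves the high-affinity IgE receptor, had 673, 771 and 752 CPM in libraries labelled KO with curdlan and 563, 597 and 572 CPM in unstimulated ones. In WT libraries it had 454, 391 and 387 CPM with curdlan and 468, 405 and 401 CPM without it. The libraries labelled KO with curdlan were the highest of the 4 groups and overlapped none of the others, while both WT groups overlapped each other. By the quasi-likelihood test of edgeR, with p-values adjusted over all genes tested (Benjamini-Hochberg), Fcer1g was higher in libraries labelled KO by 0.84 (SE 0.0904, adjusted p = 1.36e-05) with curdlan and by 0.44 (SE 0.09, adjusted p = 0.00158) without it, both on the log2 scale.

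Tyrobp, the adapter of Trem2 and of many other receptors of myeloid and NK cells, had 584, 528 and 593 CPM in libraries labelled KO with curdlan and 620.1, 589 and 597 CPM in unstimulated ones. In WT libraries it had 441, 412 and 399.7 CPM with curdlan and 477, 450.2 and 443 CPM without it. The genotypes did not overlap in either state. Tyrobp was higher in libraries labelled KO by 0.44 (SE 0.0714, adjusted p = 0.000269) with curdlan and by 0.40 (SE 0.0713, adjusted p = 0.000653) without it on the log2 scale, by the same edgeR test.

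Among the activating receptors, Fcgr1 encodes the high-affinity IgG receptor CD64, and its surface protein needs the gamma chain. It had 100.04, 93.4 and 122 CPM in libraries labelled KO with curdlan, 68.8, 74.4 and 72.7 CPM in unstimulated ones, 49.8, 41.6 and 44.0 CPM in WT libraries with curdlan, and 57.1, 47.6 and 45.3 CPM in unstimulated WT libraries. The libraries labelled KO stood in 2 steps, all with curdlan above all without it, whereas the WT groups overlapped. On the log2 scale Fcgr1 was higher in libraries labelled KO by 1.22 (SE 0.113, edgeR adjusted p = 4.43e-06) with curdlan and by 0.53 (SE 0.112, adjusted p = 0.00221) without it.

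Fcgr3 encodes a low-affinity activating receptor for IgG immune complexes. It had 558, 524 and 586 CPM in libraries labelled KO with curdlan, 733, 614 and 664 CPM in unstimulated ones, 463, 437 and 381 CPM in WT libraries with curdlan, and 534, 499.8 and 457 CPM in unstimulated WT libraries. The highest group was the unstimulated one labelled KO, so the order of the 2 KO groups was the opposite of that for Fcgr1. Fcgr3 was higher in libraries labelled KO by 0.38 (SE 0.0961, edgeR adjusted p = 0.0055) with curdlan and by 0.43 (SE 0.0961, adjusted p = 0.00289) without it on the log2 scale. Scaled by library size alone, the difference with curdlan was 0.13 with an adjusted p of 0.262.

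Fcgr4, an activating receptor of mouse monocytes, macrophages and neutrophils, was the lowest of the 7. It had 9.03, 9.35 and 22.3 CPM in libraries labelled KO with curdlan and 11.1, 8.62 and 21.4 CPM in unstimulated ones. In WT libraries it had 3.67, 3.19 and 3.33 CPM with curdlan and 4.05, 3.498 and 4.02 CPM without it. The library numbered 5 was the high one in both KO groups, and the others labelled KO still lay above every WT library. Fcgr4 was higher in libraries labelled KO by 1.99 (SE 0.376, edgeR adjusted p = 0.000847) with curdlan and by 1.83 (SE 0.366, adjusted p = 0.00142) without it on the log2 scale. Without both KO libraries numbered 5 the differences were 1.43 and 1.38, with adjusted p-values of 6.02e-06 and 5.31e-06.

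The summed level of 10 neutrophil markers, among them S100a8, Ly6g and Mpo, was also higher in libraries labelled KO. In each state 9 of the 10 were called higher there, where 24.7% of all genes were with curdlan and 21.1% without it. The sum was 6886, 6130 and 9582 CPM in libraries labelled KO with curdlan and 6686, 7606 and 10410 CPM in unstimulated ones. In WT libraries it was 4109, 3974 and 4657 CPM with curdlan and 4675, 4652 and 5906 CPM without it. The KO libraries numbered 5 were again the highest of their groups. Among the other libraries of a group the order could differ. Unstimulated KO library 2 had a higher sum than library 1 (7606 against 6686 CPM) but less Fcgr4 (8.62 against 11.1 CPM). The correlation of the sum with Fcgr4 was not computed. The genes closest to Fcgr4 in pattern over the 12 libraries were Igfbp4, Stfa1 and Retnlg, with root mean square differences of 0.134, 0.184 and 0.20 between gene-centred log2 CPM. Of these, Stfa1 and Retnlg are known from neutrophils. The part of neutrophils in the Fcgr4 difference was not tested, and in bulk RNA more cells of a type and more RNA per cell cannot be told apart.

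**Figure D2:**
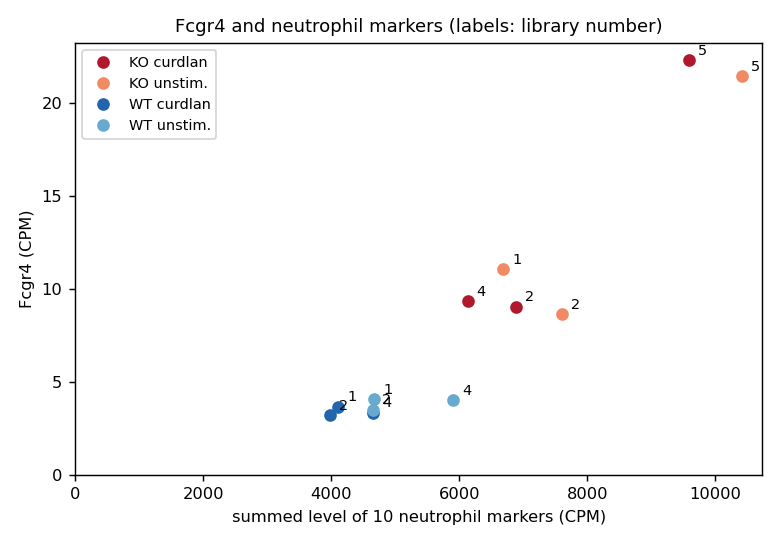
Fcgr4 (vertical axis, CPM) against the summed level of 10 neutrophil markers (horizontal axis, CPM) in the 12 libraries, both axes linear from 0, with the library number beside each point and colours for the 4 groups. The KO libraries numbered 5 lie at the upper right, near 22.3 and 21.4 CPM of Fcgr4, and the 6 WT libraries lie at the lower left, at or below 4.05 CPM.

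Fcgr2b, whose protein restrains the activating receptors, had 807, 809 and 815 CPM in libraries labelled KO with curdlan and 934, 823 and 822 CPM in unstimulated ones. In WT libraries it had 559, 535 and 517 CPM with curdlan and 565, 558 and 558 CPM without it. The genotypes did not overlap in either state. Fcgr2b was higher in libraries labelled KO by 0.59 (SE 0.07, edgeR adjusted p = 2.67e-05) with curdlan and by 0.62 (SE 0.07, adjusted p = 2.02e-05) without it on the log2 scale. The inhibitory receptor was thus higher in the same libraries as the activating ones.

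Trem2, which binds lipids and lipoproteins and is best known from microglia and osteoclasts, had 186, 229 and 238 CPM in libraries labelled KO with curdlan and 223, 182 and 203 CPM in unstimulated ones. In WT libraries it had 133, 117 and 104 CPM with curdlan and 168, 135 and 124 CPM without it. The genotypes did not overlap in either state, and the 2 states overlapped within each genotype. Trem2 was higher in libraries labelled KO by 0.88 (SE 0.135, edgeR adjusted p = 0.000187) with curdlan and by 0.51 (SE 0.134, adjusted p = 0.00776) without it on the log2 scale. Scaled by library size alone, the unstimulated difference was 0.33 with an adjusted p of 0.0577.

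Without stimulation, 7 of 7 members were called higher in libraries labelled KO, where 44.4% of all genes tested were called in either direction. The groups did not overlap for any of the 7, which held in the same direction for 26.3% of all genes. The median log2 fold change was 0.51 over the members and -0.01 over all genes tested. With curdlan, 7 of 7 members were again called higher, where 51.4% of all genes were called in either direction and 27.4% had groups that did not overlap in this direction. The median was then 0.84 over the members and 0.01 over all genes tested. The shared direction is a description of the 7 genes, and the 2 comparisons use different libraries of the same 2 labelled genotypes.

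**Figure D3:**
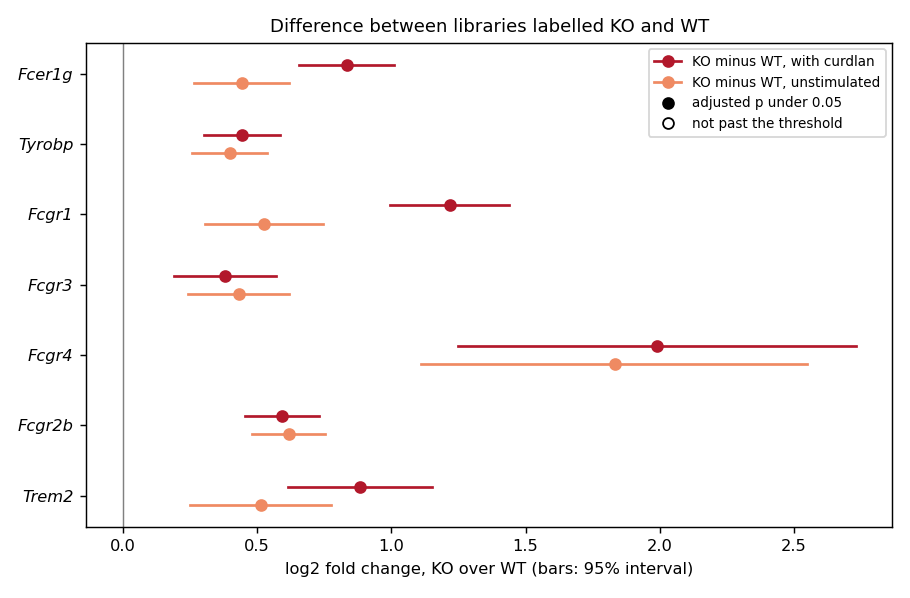
Log2 fold change of the 7 genes in libraries labelled KO over WT libraries (horizontal axis), with curdlan and unstimulated; bars are 95% intervals by a normal approximation, and filled points passed an adjusted p of 0.05. All 14 points are filled and right of 0, and Fcgr1 and Fcer1g have larger values with curdlan (1.22 and 0.84) than without it (0.53 and 0.44).

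The authors' deposited table of KO against WT with curdlan gives the same directions for all 7, with log2 fold changes of 0.37 for Fcgr3 to 1.81 for Fcgr4. A further deposited table is named an interaction. The authors' deposited table of that name gives the members values within 0.0117 of the unstimulated difference computed here, and over all genes the median absolute gap was 0.011 to that difference and 0.473 to the difference of the curdlan responses. Its values for the members are therefore read here as differences between unstimulated genotypes.

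With curdlan, Fcgr1 and Fcer1g were called higher than without it in libraries labelled KO. These are 2 of 7 members, a share like the 28.6% of all genes called in either direction. Fcgr1 averaged 105 ± 14.9 CPM with curdlan and 72.0 ± 2.83 CPM without it, and Fcer1g 732 ± 52.4 CPM with curdlan and 577 ± 17.9 CPM without it (SD, n = 3 each). The log2 fold changes were 0.55 for Fcgr1 (SE 0.112, edgeR adjusted p = 0.00354) and 0.34 for Fcer1g (SE 0.0899, adjusted p = 0.0138). The Fcgr1 call stood in all 16 settings run, at 0.35 to 0.62. The Fcer1g call did not, with adjusted p = 0.0575 without unstimulated KO library 1, 0.0513 without KO curdlan library 4, 0.0768 without both KO libraries numbered 5 and 0.25 when scaled by library size alone. Scaling by library size alone called 4 members in libraries labelled KO, Fcgr1 higher and Tyrobp, Fcgr3 and Fcgr2b lower, where it called 39% of all genes.

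Fcgr3 was just short of the threshold in libraries labelled KO. It averaged 556 ± 30.7 CPM with curdlan and 670.4 ± 59.4 CPM without it, a log2 fold change of -0.27 (SE 0.096, edgeR adjusted p = 0.0523). Its groups did not overlap, but neither did those of Fcgr2b (edgeR adjusted p = 0.397), so no change is read from that alone. The adjusted p was 0.037 without unstimulated KO library 2 and 0.0465 without KO curdlan library 5, and DESeq2's was 0.0259. With the library number as a block the change was -0.16 with an adjusted p of 0.0718. The log2 fold changes of the others were -0.08 for Tyrobp, -0.09 for Fcgr2b, -0.02 for Fcgr4 and 0.10 for Trem2, with 95% intervals that included 0. The Fcgr4 interval ran from -0.71 to 0.66, so a change of that size could not be seen here.

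In WT libraries 0 of 7 members were called with curdlan, where 19.8% of all genes were called. Limma-voom and DESeq2 also called 0, while scaling by library size alone called 4, Tyrobp, Fcgr3, Fcgr2b and Trem2, all lower, where it called 32.3% of all genes. Fcgr3 had the lowest edgeR p-value of the 7, at 0.0418 unadjusted and 0.132 adjusted. All 7 log2 fold changes were negative, from -0.05 for Fcer1g to -0.27 for Trem2, with a median of -0.15 against -0.03 over all genes. Since WT libraries with the same number deviated together, the comparison was also made with the number as a block, and then 2 of 7 were called, where 38.3% of all genes were. In that fit the log2 fold change was -0.22 for Fcgr3 (adjusted p = 0.00482) and -0.26 for Trem2 (adjusted p = 0.00352). Within the pairs numbered 1, 2 and 4 the log2 ratios of curdlan over unstimulated were -0.20, -0.19 and -0.26 for Fcgr3 and -0.33, -0.21 and -0.25 for Trem2. Each WT pair moved down for both genes, and also for every other member, with Tyrobp at -0.11, -0.13 and -0.15, for example. The share of all genes that fell in every WT pair was not computed.

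**Figure D4:**
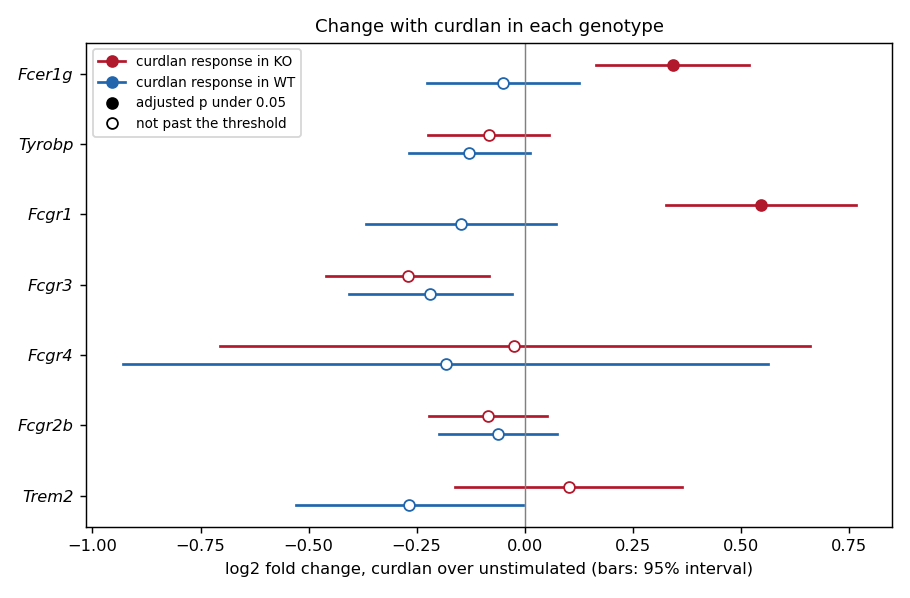
Log2 fold change of the 7 genes with curdlan over unstimulated (horizontal axis), in libraries labelled KO and in WT libraries; bars are 95% intervals by a normal approximation, and filled points passed an adjusted p of 0.05 in the fit without a block. The filled points are those of Fcgr1 and Fcer1g in libraries labelled KO, at 0.55 and 0.34.

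The curdlan response itself differed between the genotypes for 1 of 7 members, Fcgr1, where 1.61% of all genes were called in this direction. The log2 response was 0.55 in libraries labelled KO and -0.15 in WT libraries, a difference of 0.69 (SE 0.158, edgeR adjusted p = 0.0284). With the number as a block the difference was 0.73 with an adjusted p of 0.000937. In that unblocked fit the call was lost without any of 5 libraries: adjusted p = 0.0682 without unstimulated WT library 1, 0.0854 without WT curdlan library 2, 0.0677 without WT curdlan library 4, 0.0815 without unstimulated KO library 1 and 0.0524 without unstimulated KO library 5. It was 0.066 without both KO libraries numbered 5, and the difference was between 0.54 and 0.77 in the 21 settings run. Within pairs, the log2 ratio of Fcgr1 was 0.43 and 0.75 for KO numbers 2 and 5, and -0.20, -0.19 and -0.04 for WT numbers 1, 2 and 4. The share of all genes whose pairs separate in this way was not computed, and the KO pairing is uncertain.

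Fcer1g and Trem2 had responses that differed by 0.39 (SE 0.127, edgeR adjusted p = 0.0849) and 0.37 (SE 0.189, adjusted p = 0.242) on the log2 scale and missed the threshold. With the number as a block they passed, at 0.33 (adjusted p = 0.0276) for Fcer1g and 0.39 (adjusted p = 0.0149) for Trem2, which makes 3 of 7 in that fit, where 14.1% of all genes were called. Whether the numbers pair the KO libraries is uncertain. Fcer1g also passed with DESeq2 (adjusted p = 0.0378) and without KO curdlan library 2 (adjusted p = 0.0394). Within pairs, the log2 ratio of Fcer1g was 0.17 and 0.39 for KO numbers 2 and 5 and -0.05 for each of the 3 WT numbers. For Tyrobp, Fcgr3 and Fcgr2b the differences were 0.04, -0.05 and -0.02, with intervals of -0.15 to 0.24, -0.32 to 0.21 and -0.22 to 0.17. For Fcgr4 it was 0.16, with an interval of -0.85 to 1.17.

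Ratios of 2 members within a library do not depend on how libraries are scaled. Counts of Fcer1g over those of Tyrobp were 1.15, 1.46 and 1.27 in libraries labelled KO with curdlan and 0.907, 1.01 and 0.959 in unstimulated ones. In WT libraries the ratio was 1.03, 0.947 and 0.968 with curdlan and 0.981, 0.899 and 0.907 without it. The libraries labelled KO with curdlan stood above all the others. The means were 1.29 ± 0.156 with curdlan and 0.96 ± 0.053 without it in libraries labelled KO (SD, n = 3 each; two-sided exact permutation p = 0.1, the smallest that 3 libraries against 3 allow). In WT libraries the means were 0.981 ± 0.0419 with curdlan and 0.929 ± 0.0454 without it, with overlap (exact permutation p = 0.3). Within the WT pairs numbered 1, 2 and 4 the ratio was higher with curdlan by 0.0467, 0.048 and 0.0604, and within the KO pairs numbered 2 and 5 by 0.138 and 0.31.

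Counts of the activating Fcgr3 over those of the inhibitory Fcgr2b were 0.691, 0.648 and 0.719 in libraries labelled KO with curdlan and 0.785, 0.746 and 0.809 in unstimulated ones. In WT libraries this ratio was 0.828, 0.817 and 0.737 with curdlan and 0.945, 0.896 and 0.818 without it. It was lower in libraries labelled KO than in WT libraries in both states with no overlap, by 0.108 with curdlan and by 0.106 without it (exact permutation p = 0.1 each, the smallest possible). In libraries labelled KO it was also lower with curdlan than without it with no overlap (exact permutation p = 0.1), while the WT groups overlapped (exact permutation p = 0.2). The mean differences were nevertheless alike, at -0.094 in libraries labelled KO and -0.0921 in WT libraries, and the ratio was lower with curdlan within each of the 3 WT pairs, with differences of -0.116, -0.0785 and -0.0817. The stretch these genes share touches each of these ratios, and its part was not tested.

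**Figure D5:**
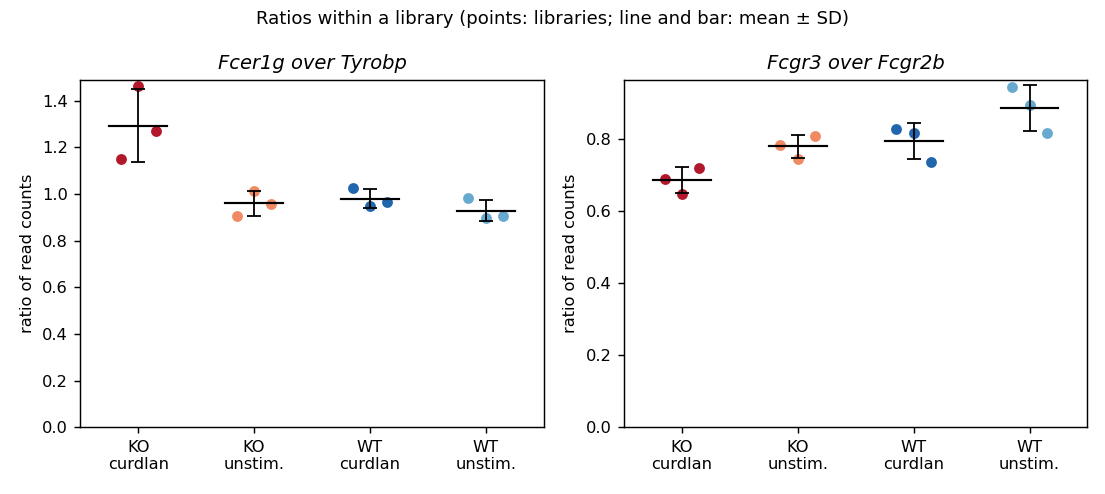
Ratios of read counts within a library (vertical axes, linear, from 0) for Fcer1g over Tyrobp and for Fcgr3 over Fcgr2b in the 4 groups; points are libraries, and the line and bar are mean ± SD (n = 3). For Fcer1g over Tyrobp the libraries labelled KO with curdlan lie between 1.15 and 1.46 and the other 9 at or below 1.03.

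Levels between genes can be compared only per length. Per kilobase of all annotated exons, the mean CPM in libraries labelled KO with curdlan was 852 ± 52.9 for Tyrobp, 838 ± 59.9 for Fcer1g, 320.2 ± 17.7 for Fcgr3, 140.0 ± 0.641 for Fcgr2b, 44.1 ± 5.69 for Trem2, 40.6 ± 5.76 for Fcgr1 and 10.8 ± 6.02 for Fcgr4 (SD, n = 3). By these lengths the adapters did not differ beyond their spread in this group, and neither did Trem2 and Fcgr1. In the other 3 groups Tyrobp was above Fcer1g, with 684.5 ± 27.1 against 486 ± 42.9 per kilobase in unstimulated WT libraries, for example. The order rests on the transcript lengths. With the longest protein-coding transcript in place of all exons, Fcer1g stood above Tyrobp in libraries labelled KO with curdlan, at 1072 ± 76.7 against 952 ± 59.0 per kilobase, and remained below it in the other 3 groups. Trem2 then stood at 200.2 ± 25.8 per kilobase, next to Fcgr2b at 229 ± 1.05, because a long non-coding transcript of 4784 bases was no longer counted in its length. The lengths of the transcripts present in these cells were not measured.

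The promoters of Fcgr1, Fcer1g and Fcgr4 are shown because the first 2 were the members called with curdlan and the third had the largest genotype difference. They run from 250 bases before to 50 after the annotated start (RefSeq, GRCm38.p6, which held 6 of the 7 members, Tyrobp being the other). Capitals mark matches, on either strand, to TTCNNNGAA (GAS, the site bound by STAT proteins), GAAA, any 2 bases and GAAA (a core of ISRE, bound by interferon-regulated factors) and GAGGAA (a core of the site of PU.1, the myeloid master regulator). These patterns occurred in 8.3%, 3.44% and 28.3% of 32851 promoters of the same length.
Fcgr1 promoter, chr3:96293920-96294219, minus strand: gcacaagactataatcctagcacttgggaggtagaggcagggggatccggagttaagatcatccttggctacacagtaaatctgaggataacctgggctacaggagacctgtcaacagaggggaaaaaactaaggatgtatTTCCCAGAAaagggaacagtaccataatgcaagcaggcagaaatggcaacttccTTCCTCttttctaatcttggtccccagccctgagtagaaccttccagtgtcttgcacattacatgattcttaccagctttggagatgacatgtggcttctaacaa
Fcer1g promoter, chr1:171234300-171234599, minus strand: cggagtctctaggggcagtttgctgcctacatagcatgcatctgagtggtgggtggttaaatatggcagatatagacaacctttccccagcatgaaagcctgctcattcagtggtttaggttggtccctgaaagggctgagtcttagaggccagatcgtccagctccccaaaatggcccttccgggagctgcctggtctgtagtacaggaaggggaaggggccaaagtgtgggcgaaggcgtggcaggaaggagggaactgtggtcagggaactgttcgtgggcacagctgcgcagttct
Fcgr4 promoter, chr1:171018676-171018975, plus strand: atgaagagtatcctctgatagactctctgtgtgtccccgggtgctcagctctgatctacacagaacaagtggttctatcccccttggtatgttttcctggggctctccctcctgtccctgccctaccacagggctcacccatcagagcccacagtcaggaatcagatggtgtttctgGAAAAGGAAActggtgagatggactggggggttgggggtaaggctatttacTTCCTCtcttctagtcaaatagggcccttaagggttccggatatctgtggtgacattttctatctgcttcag
Fcgr1 held a GAS match whose first base is 109 bases before the start and a PU.1 core 55 bases before it. Fcgr4 held an ISRE match 73 bases before the start and a PU.1 core 22 bases before it. Fcgr3 and Trem2 held a PU.1 core, and the windows of Fcer1g and Fcgr2b held none of the 3 patterns. A match is a run of letters and says nothing of a bound factor.

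Other genes whose pattern over the 12 libraries lay closest to a member were found among 6967 expressed genes by the root mean square difference of gene-centred log2 CPM. For Fcgr1 they were Dennd1c (0.12), Hexdc (0.143) and Siglecg (0.15), for Tyrobp they were Cd300lf (0.0703), Lamp1 (0.072) and Map2k4 (0.0731), and for Trem2 they were Mocs2 (0.119), Msr1 (0.141) and Rpl30 (0.144). Fcer1g lay closest to Rps27rt (0.0788), Fcgr3 to Ubald1 (0.0688) and Fcgr2b to Plod1 (0.0628). All values share the same libraries, and they are given as a description.

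The counts for the lists below stand beside shares over all genes, called in either direction, of 51.4% for KO against WT with curdlan, 44.4% without it, 28.6% for curdlan in libraries labelled KO and 19.8% for curdlan in WT libraries. The first list holds 29 other genes, mainly receptors that use Fcer1g or Tyrobp or have an ITAM-like motif of their own, and also the adapter gene Hcst. Of these, 25 could be tested. With curdlan, 12 were higher and 2 lower in libraries labelled KO than in WT libraries, and without it 10 were higher and 3 lower. The median log2 fold change of the list was 0.36 in both states, against 0.01 with curdlan and -0.01 without it over all genes tested. Clec4d, a C-type lectin that pairs with the gamma chain, averaged 279 ± 46.7 CPM in libraries labelled KO with curdlan and 136 ± 5.58 CPM in WT libraries with curdlan, a log2 fold change of 1.04 (edgeR adjusted p = 1.66e-05). Hcst, which encodes the adapter DAP10 and lies on the opposite strand with its 3′ end 126 bases from that of Tyrobp, was higher by 0.98 (adjusted p = 0.000273) with curdlan and by 0.84 (adjusted p = 0.000799) without it. In libraries labelled KO with curdlan Hcst averaged 9.26 CPM and Tyrobp 568 CPM. The kit does not mark strand, so reads running past the end of Tyrobp could be counted for Hcst. Their part was not tested. Klrk1, the receptor NKG2D that uses DAP10 and DAP12, was lower, at 1.17 ± 0.303 CPM in libraries labelled KO and 7.21 ± 0.193 CPM in WT libraries, both with curdlan, a log2 fold change of -2.61 (adjusted p = 1.41e-06).

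Fcer1a and Ms4a2, the alpha and beta chains of the IgE receptor that share the gamma chain of Fcer1g, were low but higher in libraries labelled KO. Without stimulation Fcer1a averaged 5.68 ± 2.85 CPM in libraries labelled KO and 1.32 ± 0.252 CPM in WT libraries, and Ms4a2 7.58 ± 1.79 CPM in libraries labelled KO and 1.69 ± 0.261 CPM in WT libraries. The log2 fold changes were 2.10 for Fcer1a (edgeR adjusted p = 0.000477) and 2.16 for Ms4a2 (adjusted p = 3.98e-06). The summed level of 10 mast cell and basophil markers, which include both genes, was 394 to 504 CPM in libraries labelled KO and 67.9 to 91.3 CPM in WT libraries with curdlan. Without curdlan it was 231 to 320.2 CPM in libraries labelled KO and 49.9 to 54.5 CPM in WT libraries. Hdc alone made up 62.6% of it in libraries labelled KO and 52.2% in WT libraries with curdlan. In libraries labelled KO Hdc averaged 277 CPM with curdlan and 110 CPM without it. Kit, Mcpt8 and Gata2 also had higher means there with curdlan, while Fcer1a, Ms4a2, Cpa3, Tpsb2 and Cma1 had lower ones. Mcpt4, a connective tissue mast cell protease, was at 0 in all 12 libraries. The part of such cells in the Fcer1g difference was not tested.

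With curdlan against unstimulated, 7 of the 25 genes of the receptor list were higher and 2 lower in libraries labelled KO. In WT libraries 4 were higher and 0 lower, where 19.8% of all genes were called. The median log2 change was 0.11 in libraries labelled KO and 0.05 in WT libraries. Trem1 and Clec5a, which signal through DAP12, rose in both. The log2 fold change of Trem1 was 1.05 (edgeR adjusted p = 0.0078) in libraries labelled KO and 1.17 (adjusted p = 0.00578) in WT libraries, and that of Clec5a 0.70 (adjusted p = 0.00189) in libraries labelled KO and 0.96 (adjusted p = 0.000295) in WT libraries. Clec4e, the gamma-chain receptor Mincle, had 1884 ± 34 CPM with curdlan and 1533 ± 78.9 CPM without it in libraries labelled KO, and 1156 ± 70.4 CPM with curdlan and 506 ± 53.8 CPM without it in WT libraries. Its response was smaller in libraries labelled KO by 0.89 on the log2 scale (adjusted p = 0.00477), where the starting level was higher.

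A list of 25 genes was drawn up for inhibitory receptors and phosphatases. Of these, 12 were higher and 2 lower in libraries labelled KO than in WT libraries with curdlan. Without curdlan 11 were higher and 4 lower. The medians were 0.23 with curdlan and 0.25 without it on the log2 scale. With curdlan against unstimulated, 7 rose and 3 fell in libraries labelled KO, and 5 rose and 2 fell in WT libraries. Cd72, an ITIM receptor of B cells and some myeloid cells, averaged 39.7 ± 4.0 CPM with curdlan and 8.26 ± 1.15 CPM without it in libraries labelled KO, and 10.6 ± 1.21 CPM with curdlan and 9.93 ± 1.27 CPM without it in WT libraries. Its response differed by 2.18 on the log2 scale (edgeR adjusted p = 0.000608). Lilr4b, a leukocyte receptor of this list, rose by 0.96 (adjusted p = 4.95e-05) in libraries labelled KO and by 0.45 (adjusted p = 0.00753) in WT libraries. The difference of 0.50 between these missed the threshold (adjusted p = 0.0621). Whether Lilr4b itself carries an ITIM was not checked. Lilrb4a, also of this list, rose by 0.765 (adjusted p = 7.01e-05) in libraries labelled KO and by 0.411 (adjusted p = 0.00507) in WT libraries.

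Of 30 genes that signal downstream of the ITAM, 13 were higher and 7 lower in libraries labelled KO than in WT libraries with curdlan, and 17 were higher and 4 lower without it, Vav1 and Vav2 among them. The median log2 fold changes were 0.11 with curdlan and 0.38 without it. Lyn, a Src-family kinase that phosphorylates ITAMs and ITIMs, was higher by 0.97 (edgeR adjusted p = 6.63e-07) with curdlan and by 0.91 (adjusted p = 9.38e-07) without it. Syk, the kinase that binds the ITAM, averaged 860 ± 52.5 CPM with curdlan and 879 ± 36.1 CPM without it in libraries labelled KO, and 810 ± 18.5 CPM with curdlan and 559 ± 25 CPM without it in WT libraries. The log2 response of Syk differed by -0.57 (adjusted p = 0.0105). With curdlan against unstimulated, 7 of the 30 rose and 6 fell in libraries labelled KO, and 10 rose and 4 fell in WT libraries, with medians of -0.03 and 0.14. Pik3r1, a regulatory subunit of PI3-kinase, rose by 1.03 (adjusted p = 1.06e-05) in libraries labelled KO and by 1.02 (adjusted p = 9.99e-06) in WT libraries.

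Other Fc-binding receptors moved both ways. Of 10 tested, 3 were higher and 5 lower in libraries labelled KO than in WT libraries with curdlan, and 3 were higher and 6 lower without it, with medians of -0.89 and -1.12. Fcgrt, the neonatal receptor that recycles IgG, averaged 163 ± 60.4 CPM in libraries labelled KO and 31.3 ± 2.01 CPM in WT libraries with curdlan, a log2 fold change of 2.38 (edgeR adjusted p = 3.44e-05). Trim21, a cytosolic antibody receptor induced by interferon, was higher in libraries labelled KO by 1.54 (adjusted p = 4.48e-05) with curdlan and by 1.29 (adjusted p = 0.000205) without it. Unlike Fcgrt, Trim21 rose with curdlan in each genotype, by 1.39 (adjusted p = 0.000292) in libraries labelled KO and by 1.14 (adjusted p = 0.00151) in WT libraries.

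The genes of that list with the largest falls were low in every group. Fcmr, the IgM receptor, averaged 0.0311 ± 0.033 CPM in libraries labelled KO and 2.90 ± 0.274 CPM in WT libraries with curdlan. Fcamr had 0 counts in all 6 libraries labelled KO and 18 to 29 counts in WT libraries, and Fcrl5 had 0 to 2 counts in libraries labelled KO and 89 to 137 counts in WT libraries. These genes are known mainly from B cells. The summed level of 7 B cell markers, Fcrla among them, was 14.0 to 18.5 CPM in libraries labelled KO and 598 to 843 CPM in WT libraries with curdlan, and 18.2 to 24.6 CPM in libraries labelled KO and 613 to 860 CPM in WT libraries without it. The part of B cells in these differences, and in Fcgr2b, which B cells also express, was not tested.

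Of 19 genes known with the Trem2 and Tyrobp programme of microglia or as Trem2 proteases, 7 were higher and 4 lower in libraries labelled KO than in WT libraries with curdlan, and 8 were higher and 5 lower without it, with medians of 0.14 and -0.01. Apoe, a lipoprotein bound by Trem2, averaged 1459 ± 63.5 CPM in libraries labelled KO and 13.8 ± 1.51 CPM in WT libraries with curdlan, a log2 fold change of 6.73 (edgeR adjusted p = 3.1e-10). Ctsl, a lysosomal protease, was higher by 1.35 with curdlan (adjusted p = 2.79e-05) and by 1.33 without it (adjusted p = 3.37e-05). Lpl, lipoprotein lipase, was lower, with log2 fold changes of -1.42 (adjusted p = 1.87e-05) with curdlan and -1.98 (adjusted p = 1.6e-06) without it.

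Markers of other cells were read gene by gene as well as summed. Of 10 macrophage markers, 6 were called higher and 0 lower in libraries labelled KO with curdlan, and 7 higher and 0 lower without it. Adgre1, Mertk, C5ar1 and Lyz2 were among those called in both states, Csf1r was called without curdlan alone, and Itgam had a lower mean in libraries labelled KO, at 1150 against 1430 CPM in WT libraries with curdlan. Their sum was 17960 to 22110 CPM in libraries labelled KO and 14750 to 15960 CPM in WT libraries with curdlan, and 17280 to 22210 CPM in libraries labelled KO and 15120 to 16100 CPM in WT libraries without it. Lyz2 alone made up 74% of it in libraries labelled KO and 74.3% in WT libraries with curdlan.

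The 15 conventional dendritic cell markers went both ways. With curdlan, H2-Aa, H2-Ab1, H2-Eb1, Cd74, Ciita and Cd86, which serve antigen presentation and T cell costimulation, were called higher in libraries labelled KO. Itgax, Zbtb46, Irf4, Clec9a and Ccr7 were called lower, with Itgax at 945 against 1340 CPM, Irf4 at 326 against 521 CPM and Ccr7 at 109 against 278 CPM in WT libraries. Without curdlan 7 were called higher and 4 lower. The sum, of which Cd74 made up 51.9% in libraries labelled KO and 52% in WT libraries with curdlan, was 19950 to 25910 CPM in libraries labelled KO and 11170 to 11630 CPM in WT libraries with curdlan, and 18180 to 22970 CPM in libraries labelled KO and 10810 to 11010 CPM in WT libraries without it.

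For plasmacytoid dendritic cells the sum of 6 markers was 193 to 314 CPM in libraries labelled KO and 115 to 163 CPM in WT libraries over both states, and most of the difference lay in Bst2, at 211 against 76.4 CPM with curdlan and 141 against 69.6 CPM without it. Bst2, Klk1 and Cox6a2 were called higher in libraries labelled KO in both states, though Klk1 averaged at most 2.67 CPM in any group. Tcf4 was called higher there without curdlan (0.303 on the log2 scale, edgeR adjusted p = 0.00331). With curdlan Tcf4 and Ccr9 were called lower in libraries labelled KO. That Tcf4 call (-0.178, edgeR adjusted p = 0.0459) was lost in 16 of 22 settings. Siglech, a defining marker, averaged at most 0.448 CPM in any group. NK cell markers summed to at most 3.74 CPM and T cell markers to at most 6.67 CPM in any library, and the NK cell gene Gzma was at 0 in all 12. The part of the mix of cells in the genotype differences of the 7 genes was not tested.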

How the data were processed

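Gene expression was measured by RNA sequencing in 12 libraries, 3 in each of 4 groups, with a kit that does not mark strand, according to the labels. Curdlan is labelled as 200 mg/ml, a unit that could not be checked. The deposited values are raw counts, whole reads per gene with no normalization. The submitters' processing notes name FastQC 0.11.1, TopHat2 2.4.2a, and DESeq2 1.8.2 as well as SAMtools 1.2 and featureCounts 1.4.6. The build, and how multiply matching reads were handled, are recorded in none of the sources used here. The deposited comparison tables hold log2 fold changes by the authors, and their p-values, per the file headers. The 24 columns of values per library in those tables were not used.

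The 7 genes and all gene lists were chosen with earlier results of these data known. They were joined by the symbols of the authors' tables, which cover 33170 of 37991 genes, of which 10118 had no read. Counts of 18981 genes that passed filterByExpr were scaled by TMM and compared in edgeR 4.0.16 (two-sided quasi-likelihood F-test, 1 fit of 12 libraries, 5 contrasts) under R 4.3.3. Benjamini-Hochberg adjusted p-values under 0.05 were called. CPM use the TMM library sizes, whose factors ran from 0.863 in KO with curdlan to 1.15 in unstimulated WT. The fit was tested on simulated data. Alternatives were RLE, upper-quartile and no scaling factors, other filters, limma-voom 3.58.1, DESeq2 1.42.0, fits of 2 groups, the library number as a block, and each library left out. A further alternative, both KO libraries numbered 5 left out, was chosen after seeing the data.

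The numbers in the library names were checked for pairing through the correlation of deviations from group means over 11298 genes. In WT the same-number correlations of the states were 0.655, 0.494 and 0.207, all over 0.1, so the numbers were taken to pair them, though library 4 with curdlan correlated nearly as well with unstimulated library 2 (0.194). KO shares 2 numbers between the states, with correlations of 0.421 and 0.819, but KO curdlan library 4 with unstimulated library 2 (0.463) and curdlan library 2 with unstimulated library 1 (0.426) exceeded the lower of these, so the KO pairing is uncertain. Across genotypes they were between -0.353 and 0.202, so they do not pair KO with WT. In the authors' table the WT curdlan columns carry other numbers than in the count table, whose numbers were used. Replicates differed by more than counting noise (chi-square per degree of freedom 9.86 to 83.9), and none were merged.

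Named genes were the members, Vav1, Vav2 and Vav3, up to 4 genes per list and comparison by size of change among those called, and the 3 genes closest to each member in pattern. Genes overlapping a member or next to it in the annotation, such as Hcst, were named as well. Not every gene these rules allow is given. The choice among them, and of Fcgrt, which the rules do not hold, was made after their values were seen. Coordinates are from GENCODE M21 (GRCm38) and promoters from RefSeq.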

Additional observations from a re-analysis of the deposited data

Results flagged for a closer look

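The response to curdlan, as a log2 difference of the response in libraries labelled KO minus that in WT libraries, passed the threshold of edgeR's test of that difference for Fcgr1 (0.69, adjusted p = 0.0284) and for 11 genes of the lists. The Fcgr1 value came with a higher KO level in both states.

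Stable calls, kept in all 21 settings run, were Cd72 (2.18), Dok2 (0.64), Clec4e (-0.89), Src (-0.67) and Syk (-0.57). In Clec4e, Src and Syk the unstimulated level was already higher in libraries labelled KO.

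The other list genes were flagged by the same test and lost the call in some settings. Siglecg (0.74) lost it in 4 of 21 settings, among them the fits without unstimulated WT library 1, WT curdlan library 2 or unstimulated KO library 1, with adjusted p-values up to 0.0601. Adam17 (-0.62) lost it in 8, Clec7a (0.63) and Malt1 (-0.54) in 11 each, Clec4a2 (0.38) in 13 and Cd9 (0.44) in 14, with adjusted p-values up to 0.109, 0.12, 0.118, 0.135 and 0.127 for Adam17, Clec7a, Malt1, Clec4a2 and Cd9. For each of these 5 genes, leaving out unstimulated WT library 1, 2 or 4, WT curdlan library 2 or 4, or unstimulated KO library 1 was enough to lose the call.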

How the results depend on the processing

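All 7 members were higher in libraries labelled KO than in WT libraries in both states in each of 16 settings. With library size alone, which moved the median of all genes by -0.19 between unstimulated genotypes, -0.24 with curdlan, -0.20 for curdlan in KO and -0.17 for curdlan in WT, 6 of 7 passed in each state. For curdlan, library size alone called 4 members in KO, where it called 39% of all genes, and 4 in WT, where it called 6123 genes or 32.3%, of which 25.1% were higher. The replicate block called 2 members in WT and 3 for the difference of responses, with 7276 genes in WT and 2671 for the difference, and the pairing changed no other call of a member. DESeq2 called 2 members and 1961 genes for the difference, and a fit of the KO groups alone called 3142 genes for curdlan. Without both KO libraries numbered 5, 1 member was called for curdlan in KO and 0 for the difference.

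With 1 library left out at a time, the members called were 1 to 3 for curdlan in KO, 0 to 0 in WT, 0 to 2 for the difference and 7 to 7 between genotypes in each state. The genes called were 3490 to 6074 for curdlan in KO, 2170 to 3122 in WT, 366 to 2837 for the difference, 8009 to 9700 between genotypes with curdlan and 7099 to 7546 without it, where all libraries gave 5425, 3759, 989, 9762 and 8428 in the same order. For the difference, 366 was without WT curdlan library 2 and 2837 without KO curdlan library 2.

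The sign changed for uncalled values near 0. The difference of responses was 0.0225 with upper-quartile scaling and 0.0418 with the block for Fcgr2b, -0.0195 with library size alone and -0.0257 without both KO libraries numbered 5 for Tyrobp, and 0.059 with the block for Fcgr3. For curdlan in KO it was -0.0969 for Trem2 with library size alone and 0.0611 for Fcgr4 with the block. With 1 library left out, Fcer1g in WT ran from -0.128 to 0.0259 and Fcgr4 in KO from -0.592 to 0.455, and the difference ran from -0.0208 to 0.0907 for Tyrobp, -0.128 to 0.0116 for Fcgr3, -0.434 to 0.635 for Fcgr4 and -0.0612 to 0.0355 for Fcgr2b. The cause of these changes was not tested. With 3 libraries a group, changes in Fcgr4 below its spread between libraries could not be seen.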
